A study of Homo sapiens with 4 samples.

Results

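To examine which RNA regions carried an NSUN2 RIP-seq peak with lactate and none with ddH2O, the 3290 dense lactate-only peaks were described. In RIP-seq, RNA is recovered from a lysate with an antibody to an RNA-binding protein, here NSUN2, and sequenced together with untreated lysate RNA (the input). PANC-1 is an established line of human pancreatic ductal adenocarcinoma cells. Wild-type PANC-1 cells received 30 mM sodium lactate or ddH2O as the vehicle for 24 h, and each condition gave 1 IP and 1 input library, 4 in all. The sites were selected on peak calls and on the lactate signal. A lactate peak was chosen when it overlapped no ddH2O peak by even 1 base and when its window had a normalized read density of 8 or more in the lactate IP. The density is the reads per kb of a 2000-base window around the peak, after the authors' rescaling with MAnorm. The 3290 peaks made up 17.2% of the 19081 dense lactate peaks and 15.7% of the 20972 lactate peaks without a ddH2O peak, among 48104 lactate peaks in all. Since the rule used the lactate and ddH2O signals themselves, all differences between the IP libraries at these sites are given as a description, with no test and no replicate error. With 1 library per condition, the spread between cultures is unknown.

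NSUN2 is an RNA methyltransferase that places a methyl group on carbon 5 of cytosine (m5C), and it is best known for modifying transfer RNAs and vault RNAs. It resides in the nucleus and nucleolus for much of the cell cycle and also modifies messenger RNA. A precipitate of such a nuclear protein can hold unspliced transcripts, whose introns then appear as peaks, as well as spliced mRNA, whose peaks lie in exons and UTRs.

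Most of the dense lactate-only peaks lay away from small RNAs and from the starts of genes, and the few that touched one are shown here because the sequences are short and their position is exact. Of the 3290 peaks, 2 overlapped a miRNA hairpin. The mature sequences below are from RefSeq (GRCh38.p14), with the seed (bases 2 to 8) in capitals.
hsa-miR-3145-3p: aGAUAUUUugaguguuuggaauug
hsa-miR-3145-5p: aACUCCAAacacucaaaacuca
hsa-miR-1227-3p: cGUGCCACccuuuuccccag
hsa-miR-1227-5p: gUGGGGCCaggcggugg
The 4 seeds all differed. The peak on MIR3145 at chr6:138435248-138435599 covered the 5p sequence and left out the 3p sequence, and its window held 21 lactate reads and 14 ddH2O reads (densities of 12.3 and 6.68). The other hairpin, MIR1227, lay inside an exon peak of PLEKHJ1 at chr19:2233948-2234208, where the densities were 82.7 with lactate and 72.9 with ddH2O. Library inserts of this kind come from long RNA, so reads over a hairpin do not show whether the mature miRNA was bound.

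The promoter window of RefSeq, which spans the start of a gene, was touched by 8 of the peaks, and 3 of them covered bases before the start of their own gene. Those 3 are printed from 10 bases before the peak, in lower case, to 20 bases inside it, in capitals, on the strand of the gene.
CAST: ggcggggcctGCGCCGGGCCCCACCCCCAG
BTF3: ggaccatcacAAACGCTGTCGCGCGTGCGC
UPF3B: ttgttgggggCGGAGCTTTGACGGGAGCTT
The stretches lie at chr5:96662953-96662982 (CAST, plus strand), chr5:73498338-73498367 (BTF3, plus strand) and chrX:119852995-119853024 (UPF3B, minus strand). The peak reached 62 bases before the RefSeq start of CAST, which encodes the calpain inhibitor calpastatin. At BTF3, a subunit of the nascent polypeptide-associated complex, 94 bases before the start were covered, and at UPF3B, a nonsense-mediated decay factor, 51 bases. The deposited annotation calls all 3 peaks exonic. Their densities were 17.4 with lactate and 22.5 with ddH2O at CAST, 12.9 and 17.5 at BTF3, and 8.43 and 10.2 at UPF3B. At all 3 sites the ddH2O density was the higher one on the MAnorm scale, while by the library sums described below the log2 ratios were -0.03 at CAST, -0.04 at BTF3 and 0.25 at UPF3B. The windows of CAST and BTF3 held part of a ddH2O peak, 369 and 452 bases from the lactate peak.

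The reads of each window were computed back from the deposited densities. With MT-RNR2 and MALAT1 left out, all 116484 merged peaks together held 1945000 lactate reads and 3536821 ddH2O reads, which is 1.82 times as many with ddH2O, and the ddH2O list held 95785 peaks. With both kept, the totals were 9756054 and 9553835 reads, a ratio of 0.979, since the window of MT-RNR2 held 7681292 and 5927141 of them. The median log2 ratio of lactate over ddH2O across all merged peaks was -0.50 on the MAnorm scale and 0.07 when the reads were scaled by the sums without MT-RNR2 and MALAT1, which are the library sums named below. It was -0.83 when they were scaled by the totals. All ratios below are on the MAnorm scale unless the sums are named, and both scales were computed for each site. Of 6 ductal epithelial markers, 4 had a lactate peak and all 6 had a ddH2O peak, with KRT18 reaching 2737 lactate reads and 8085 ddH2O reads in a window, whereas EPCAM and CDH1 stayed at 4 reads or fewer. Of 9 markers of immune, endothelial, neural and fibroblast cells, COL1A1 had a lactate peak, PTPRC had a ddH2O peak with 3 reads, and 7 had neither.

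The sites were low in reads and seldom empty with ddH2O. The lactate density of the 3290 peaks had a median of 11.9 (range 8.02 to 482), and the ddH2O density of the same windows had a median of 7.49 (95% order-statistic interval 7.17 to 7.66, range 0.491 to 314). In reads, the medians were 20 with lactate and 16 with ddH2O. The ddH2O density was itself 8 or more at 1534 of the peaks (46.6%, 95% Wilson interval 44.9 to 48.3%). It was above the lactate density at 525 (16%). Among all lactate peaks these 2 shares were 36.9% and 34.2%, and among dense lactate peaks with a ddH2O peak 84.9% and 43.6%. Among lactate peaks without a ddH2O peak and with a density below 8, they were 1.77% and 13.5%. In raw reads, 1081 of the peaks (32.9%) had more with ddH2O. The densities are those of the IP libraries, not divided by the input, so more NSUN2 binding and more of the transcript in the cells cannot be told apart. Intervals here and below account for counting error alone. The peaks come from a single library and are not replicates, and overlapping windows share reads.

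The log2 ratio of the densities had a median of 0.80 (0.75 to 0.83) and ran from -1.62 to 5.10. A ratio above 2-fold towards lactate was reached by 1364 peaks (41.5%, 39.8 to 43.2%), on 976 genes, and a ratio above 2-fold towards ddH2O by 27 (0.821%). Among all merged peaks, 13.9% were above 2-fold towards lactate and 38.6% towards ddH2O. The rule itself selects sites with lactate signal, so nothing is read from the distance between these shares. Scaled by the library sums, 2011 of the peaks (61.1%) were above 2-fold towards lactate, and scaled by the totals with MT-RNR2 and MALAT1 kept, 30.0%. At the density minimum, several peaks tied as the nearest inside, with lactate densities of 8.02 and ddH2O densities of 3.27. Among them were peaks in introns of TMEM222 and CHEK1 and in an exon of TEFM. Just outside it were intron peaks of TBL1XR1 and RUBCN, with 7.98 and 14.9.

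**Figure D1:**
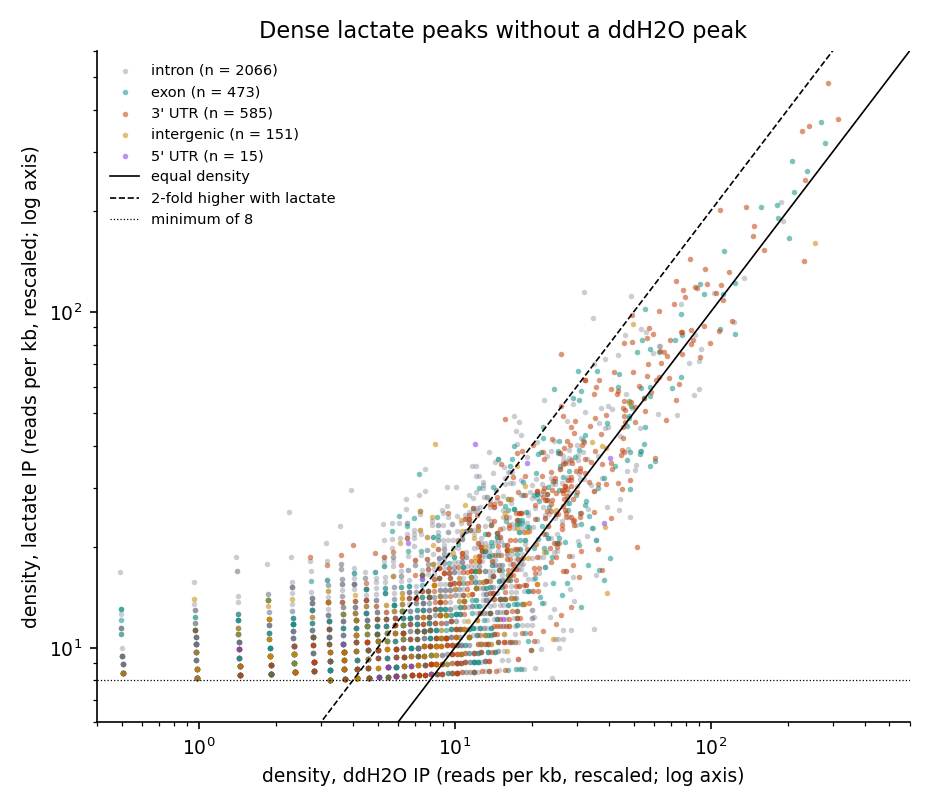
Normalized read density of the lactate IP against that of the ddH2O IP on log axes, with 1 point for each of the 3290 dense lactate-only peaks, coloured by transcript region. The solid line marks equal densities, the dashed line a 2-fold higher lactate density and the dotted line the minimum of 8. Of the points, 1364 lie above the dashed line and 525 below the solid line, and the densest points, mostly exons and 3' UTRs, lie close to the solid line.

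Introns held the largest share of these peaks. By the deposited annotation, 2066 lay in introns (62.8%, 61.1 to 64.4%), 585 in 3' UTRs (17.8%, 16.5 to 19.1%), 473 in exons (14.4%, 13.2 to 15.6%), 151 in intergenic sequence (4.59%) and 15 in 5' UTRs (0.456%). All lactate peaks had 57.7% in introns, 15.4% in 3' UTRs and 19.8% in exons. Dense lactate peaks that overlapped a ddH2O peak had 38.8% in introns, 30.4% in 3' UTRs and 26.8% in exons. Dense ddH2O peaks without a lactate peak, the mirror class, had 39.0%, 27.1% and 28.7%, respectively. The sparse lactate-only peaks, with a density below 8, had 71.4% in introns and 5.35% in 3' UTRs. The 3290 peaks are themselves among all lactate peaks, and the intron share moved with the density minimum of the rule. Nothing is therefore read from the gaps between these shares, and peaks of 1 library per condition allow no test over cultures.

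**Figure D2:**
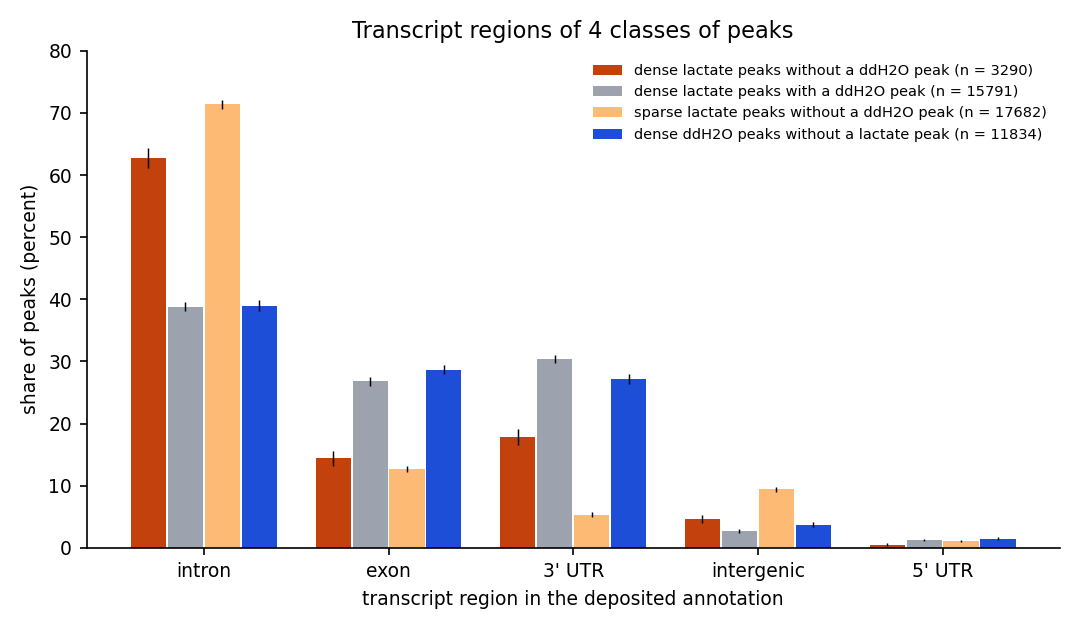
Share of peaks, in percent, that lie in each transcript region of the deposited annotation, with 95% Wilson intervals for counting error as bars. The 4 classes are the 3290 dense lactate-only peaks, 15791 dense lactate peaks with a ddH2O peak, 17682 sparse lactate-only peaks and 11834 dense ddH2O peaks without a lactate peak. The intron share of the dense lactate-only peaks, 62.8%, lies between the 38.8% of the shared peaks and the 71.4% of the sparse ones.

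The ratio of the densities went with the region. Intron peaks had a median log2 ratio of 1.03 (0.98 to 1.08) at a median density of 11.1 with lactate and 5.91 with ddH2O, and 1065 of them (51.5%) were above 2-fold. Exon peaks had a median of 0.50 (0.42 to 0.57), and 3' UTR peaks 0.32 (0.26 to 0.40), at median densities of 16.7 and 14.2. Of the 3' UTR peaks, 94 (16.1%) were above 2-fold. Intergenic peaks stood at 0.89 and 5' UTR peaks at 0.68, the latter from 15 peaks with an interval of 0.05 to 1.49.

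Density and ratio went in opposite directions. Peaks with a lactate density of 8 to 16, which were 2314 of the 3290, had a median log2 ratio of 0.96. It was 0.59 for the 675 peaks from 16 to 32, 0.39 for the 196 from 32 to 64 and 0.29 for the 105 above 64. In those 105 densest peaks, 91 had more raw reads with ddH2O than with lactate and 81 lay in exons or UTRs.

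By the class of gene, 2836 peaks (86.2%, 85.0 to 87.3%) were on protein-coding genes, 231 (7.02%) on lncRNA genes, 62 (1.88%) on pseudogenes and 10 (0.304%) on small RNA or other genes. These shares were near those of all lactate peaks, of which 85.0% were on protein-coding and 7.01% on lncRNA genes. The lncRNA peaks were 56.7% intronic and had a median log2 ratio of 0.95 (0.83 to 1.07), and the protein-coding peaks had 0.76 (0.73 to 0.82). None of 13 vault, 7SK, 7SL, Y and RNase P or MRP RNA genes had a lactate peak. Processed pseudogenes, which are copies of mRNAs, held 16 of the pseudogene peaks and transcribed processed pseudogenes another 5, and reads on such copies may belong to their parent genes. The densest of the 62 was on MORF4L1P1, with 122 and 125. The small RNA or other class had 3 peaks on U6 copies, 1 on a Y3 copy (RNY3P16, 22 and 20 reads) and 1 on a gene annotated as Metazoa_SRP, the 7SL type (20 and 3 reads, a ratio of reads of 6.67 with an exact counting interval of 1.98 to 35). Reads on these copies are uncertain in the same way. The Metazoa_SRP site was the 1 of the 10 above 2-fold on the MAnorm scale, and SNORA72 was densest with 27.7 against 16.2.

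Many of the sites adjoined a ddH2O peak that stopped short of them. The nearest ddH2O peak was a median of 678 bases away, and 1930 of the peaks (58.7%, 57.0 to 60.3%) had one within 1000 bases. So did 68.9% of all lactate peaks, those that overlap one included, and 23.1% of the sparse lactate-only peaks. Of the mirror class, 34.7% had a lactate peak that near. The 2000-base window in which the densities were counted contained part of a ddH2O peak at 1825 sites (55.5%). At those, the median log2 ratio was 0.54 (0.49 to 0.57) and 521 (28.5%) were above 2-fold. At the 1465 sites with no ddH2O peak in the window it was 1.22 (1.14 to 1.29), and 843 (57.5%) were above 2-fold. By distance, the median was 0.45 at up to 250 bases, 0.57 at 251 to 500, 0.77 at 501 to 1000 and 1.23 at 1001 to 2000 bases. Farther away it was 1.19, 1.25 and 1.03 in the last 3 bins, whose intervals overlapped each other.

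**Figure D3:**
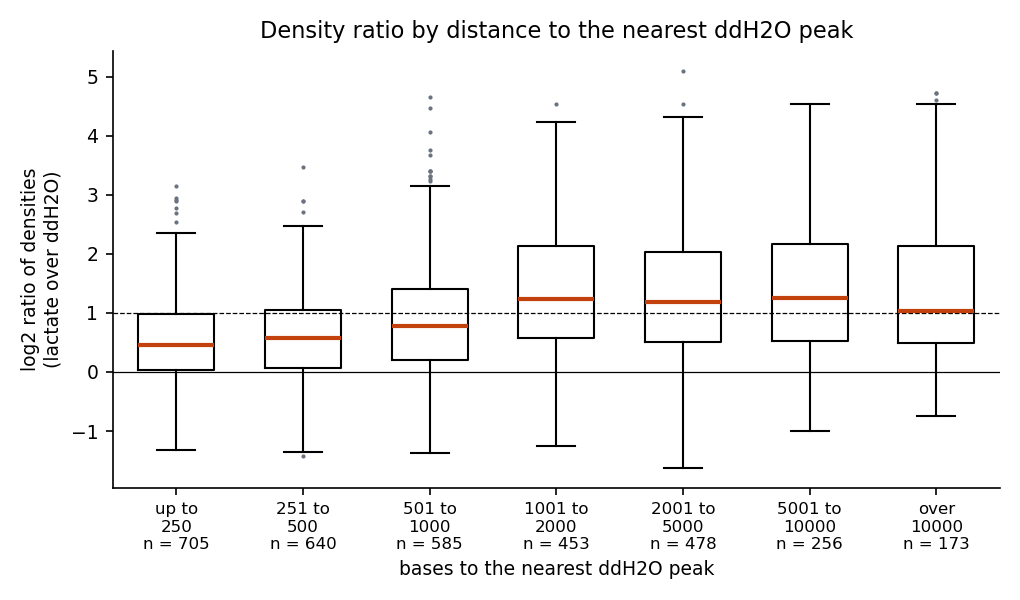
Log2 ratio of the lactate over the ddH2O density against the distance in bases to the nearest ddH2O peak. Boxes span the quartiles of the peaks in each bin, the coloured line is the median, whiskers reach 1.5 times the quartile range, and dots are peaks beyond them. The medians go from 0.45 in the nearest bin to 1.23 at 1001 to 2000 bases and then stay between 1.03 and 1.25.

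Enrichment over the input, a measure that does not involve the ddH2O libraries, was lower than at the shared peaks and near that of all lactate peaks. The deposited fold over input had a median of 3.47 (3.30 to 3.60) at the lactate-only sites and 4.78 (4.73 to 4.79) at dense lactate peaks with a ddH2O peak. Of the 3290, 1511 (45.9%, 44.2 to 47.6%) passed a deposited q-value of 0.05, as did 80.1% of the shared peaks and 42.7% of all lactate peaks, whose median fold was 3.24. The peaks were also shorter, with a median of 243 bases against 374. Between the 1511 peaks below that q-value and the other 1779, the median log2 ratio was 1.09 and 0.57, respectively.

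The peaks were spread over 2188 of the 12114 genes with a lactate peak (18.1%), and 1610 of these genes had 1 peak each. Most of these genes also had a ddH2O peak at another place. One was called on 2053 of the genes (93.8%), against 10959 (90.5%) of all genes with a lactate peak, and a lactate peak that overlapped a ddH2O peak on 1762 (80.5%). Of the 2475 sites on genes with a dense shared peak, 1809 (73.1%) had a log2 ratio above the median of the dense shared peaks of their gene. The median difference over the 2475 was 0.49. A shared peak needs a ddH2O peak and a site has none by the rule, so nothing is read from this difference. The genes were long, with a median span of 68.5 kb for the 2050 genes matched to RefSeq, against 38.8 kb for 10661 genes with a lactate peak. Windows overlapped the window of another of the sites at 570 peaks (17.3%), so neighbouring values can share reads.

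The gene with the most such peaks was SYT1, which encodes the calcium sensor of synaptic vesicle release, with 13 on a span of 588 kb, 12 of them in introns. Its lactate densities ran from 8.14 to 58.4 and its ddH2O densities from 0.983 to 48.6. The ddH2O density was above the lactate density at 2 of the 13 sites, the lowest ratio being -1.04 with 14 lactate and 40 ddH2O reads. At the other end, an intron site at chr12:79382180-79382467 had 15 lactate reads and 1 ddH2O read, a ratio of reads of 15.0 with an exact counting interval of 2.31 to 631. SYT1 as a whole had 74 lactate peaks, of which 49 were shared, and 113 ddH2O peaks.

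APP, the amyloid precursor protein gene, had 10 sites, 9 in introns, and 3 were above 2-fold. JMJD1C, of the JmjC histone demethylase family, had 9, all intronic, with ratios from -0.44 to 2.51. SBF2, a myotubularin-related gene, also had 9, which ran from -0.49 to 3.55. FRMD5, which encodes a FERM domain protein, and ZFAND6, a zinc finger gene, had 8 each, all in introns. On FRMD5, the site at chr15:44027745-44028009 had 18 lactate reads and 1 ddH2O read, and the site at chr15:44110220-44110419 had 48 and 84. Ratios on both sides of 0 thus stood within the same gene in SYT1, JMJD1C, SBF2, FRMD5 and ZFAND6, while APP had none below 0. By the library sums, SYT1 kept 2 sites below 0 and the other 5 genes had none.

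**Figure D4:**
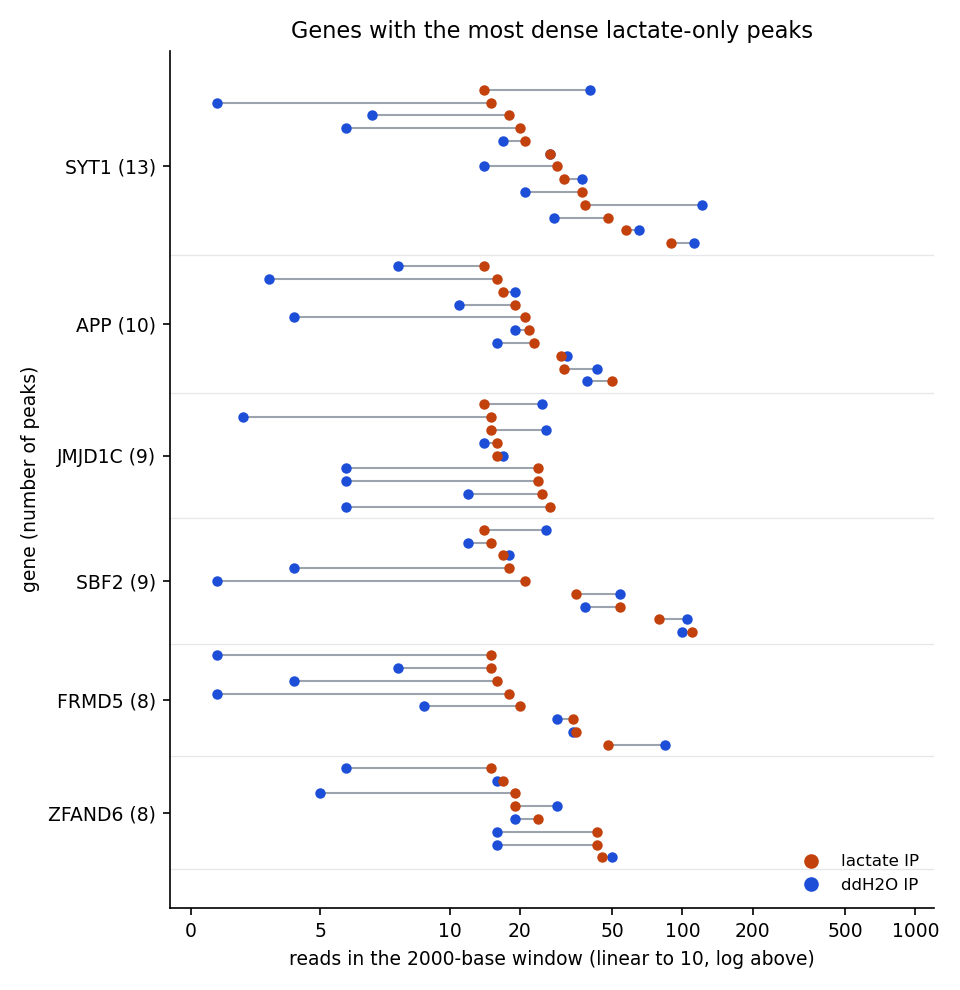
Reads in the 2000-base window at each dense lactate-only peak of the 6 genes with the most of them, with the number of peaks in brackets. Each row is 1 peak, joined between the lactate IP and the ddH2O IP, and the axis is linear up to 10 reads and logarithmic above. The reads are not scaled for depth, and the windows of merged peaks held 1.82 times as many ddH2O reads with MT-RNR2 and MALAT1 left out. Sites with far fewer ddH2O reads and sites with more of them lie in the same gene.

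The densest sites were in exons and 3' UTRs and had log2 ratios below 1. The highest was a 3' UTR peak of PTP4A2, a protein tyrosine phosphatase, at chr1:31907583-31907792, with a density of 482 with lactate and 287 with ddH2O (627 and 879 reads). ITGA2, the alpha subunit of a collagen-binding integrin, followed with 376 and 314 in its 3' UTR at chr5:53092897-53093102. HDLBP, an RNA-binding KH domain protein, had 369 and 269 in an exon, and MRPS10, a mitochondrial ribosomal protein, 359 and 242 in its 3' UTR. All of the 10 densest peaks had a log2 ratio between 0.08 and 0.75, and all had more raw reads with ddH2O. Scaled by the library sums, 5 of them (ITGA2, STIP1, PPP1CA, PEDS1 and PSMD4) turned to below 0, from -0.09 to -0.18. In 9 of the 10, the exception being PRDX5 at 4609 bases, a ddH2O peak lay within 1224 bases.

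The densest intron peaks were on KTN1, which encodes the kinesin receptor kinectin (213 and 189), and on SMC1A, a cohesin subunit (187 and 192). Among lncRNA genes, ECI1-AS1 led with 113 and 112. It is an antisense gene, and the library kit named in the labels does not mark the strand, so its reads and those of its partner cannot be told apart. The densest 5' UTR peak, on SDCBP, which encodes the scaffold protein syntenin-1, had 40.5 with lactate and 12 with ddH2O, a log2 ratio of 1.76. An intergenic peak at chrX:76178370-76178569 had 161 with lactate and 255 with ddH2O.

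The lowest ratio was at an intron peak of GTF2A1, a subunit of the general transcription factor TFIIA, with densities of 11.4 with lactate and 35 with ddH2O (18 and 83 reads), a log2 ratio of -1.62. It was followed by CDCA2, a mitotic chromatin regulator (-1.56), an intergenic site on chromosome 3 (-1.43), the 3' UTR of KDM1A, a histone demethylase (-1.37), and an intron of KIFC1, a mitotic kinesin (-1.35). The windows of these 5 sites had from 55 to 128 ddH2O reads, and those of the intergenic site, KDM1A and KIFC1 held part of a called ddH2O peak. The ratios stayed between -1.28 and -0.96 when scaled by the library sums.

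Windows with no ddH2O read at all were found at 48 of the peaks (1.46%, 1.10 to 1.93%), 41 of them in introns. The same held for 15.1% of all lactate peaks, 39.7% of the sparse lactate-only peaks and none of the dense shared ones. The 48 windows had from 16 to 32 lactate reads. A count of 0 allows up to 3 reads, and bounds are given against that floor in each window, on unscaled reads and with the lactate count taken as exact. The highest was an intron peak of ENSG00000283549 at chr7:7975920-7976491, with 32 lactate reads and none with ddH2O, at least 10.7-fold higher. TJP1, which encodes the tight junction protein ZO-1, had 24 lactate reads at chr15:29818713-29819193, at least 8-fold higher. Intron peaks of ADAM22, a neuronal cell surface protein, SEPTIN7, a cytoskeletal GTPase, and the zinc finger gene ZNF292 had 22 reads each, at least 7.33-fold higher. PPP2R3A, a regulatory subunit of phosphatase PP2A, had 21. APH1B, C1orf112, DCAF5, LINC01237, NFE2L3 and SH3RF2 each had 2 such peaks. A further 299 peaks had 1 to 3 ddH2O reads.

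Of the 48 windows, 5 were on XIST, the noncoding RNA of X chromosome inactivation, all annotated as exon. They lay between chrX:73843401 and chrX:73850478 and had 23, 25, 16, 25 and 21 lactate reads. XIST had 11 lactate peaks in all with 1 to 25 reads each, no ddH2O read in any of their windows and no ddH2O peak nearer than 99882 bases. Of the 135 genes with a site and no ddH2O peak annotated to them, XIST had the most sites. The source of its reads was not tested, nor was whether the lactate and ddH2O libraries hold RNA of the same stock of cells, on which each comparison of the libraries rests. Without XIST, 43 windows had no ddH2O read.

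The other genes without a ddH2O peak held 1 to 3 sites each, and in all 146 sites lay on the 135 genes. ENSG00000260269, a lncRNA gene, had 3, with lactate densities of 11.1 to 23.2 and ddH2O densities of 4.05 to 8.17. CCNL2, a cyclin of splicing control, had 2 in its 3' UTR, with 30.0 and 35.5 with lactate and 22.4 and 26.9 with ddH2O. TEFM, a mitochondrial transcription elongation factor, had 2 with 8.02 and 12.2 against 3.27 and 5.4. ZIC2, a zinc finger transcription factor, had 2 adjoining peaks, both with 36 lactate and 34 ddH2O reads. At least 1 ddH2O read was counted at a site in 133 of the 135 genes (98.5%), so a gene without a called ddH2O peak was seldom without ddH2O reads.

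Among adhesion and cytoskeleton genes, 26 of 30 had a lactate peak and 11 had a dense lactate-only peak, 21 peaks in all, 15 of them in introns. Of the 21, 13 were above 2-fold towards lactate and 3 were below 0, with a median log2 ratio of 1.64 (2.03 by the library sums, with 15 above 2-fold and 2 below 0). Over all 3290 sites 41.5% were above 2-fold, over the intron sites 51.5%, and 18.1% of all genes with a lactate peak had a site. VCL, which encodes vinculin, the linker between integrins and actin, had 5. Its intron peak at chr10:74059758-74060628 had 45 lactate reads and 4 ddH2O reads, a ratio of reads of 11.2 (4.10 to 43.1), and the neighbouring peak at chr10:74059074-74059301 had 24 and 1. In its 3' UTR and exon the reads were 24 against 21 and 42 against 38.

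ACTN4, the actin crosslinker alpha-actinin-4, had 3 intron peaks, with 173 lactate and 83 ddH2O reads, 31 and 2, and 20 and 7. ITGA2 had 2 adjoining intron peaks with 27 and 4 reads in each window besides its 3' UTR peak. ITGA6, a laminin receptor subunit, had 20 and 4 reads in an intron. ITGB1, the common beta subunit of these integrins, had 3 peaks with log2 ratios of 0.21, -0.53 and -0.04, and CTNNB1, which encodes beta-catenin, had -0.01. COL1A1, a collagen gene that is also a fibroblast marker, had 47 and 50 reads. By the library sums, CTNNB1 turned to 0.28, and the ITGB1 peaks stood at 0.72, -0.04 and 0.11.

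**Figure D5:**
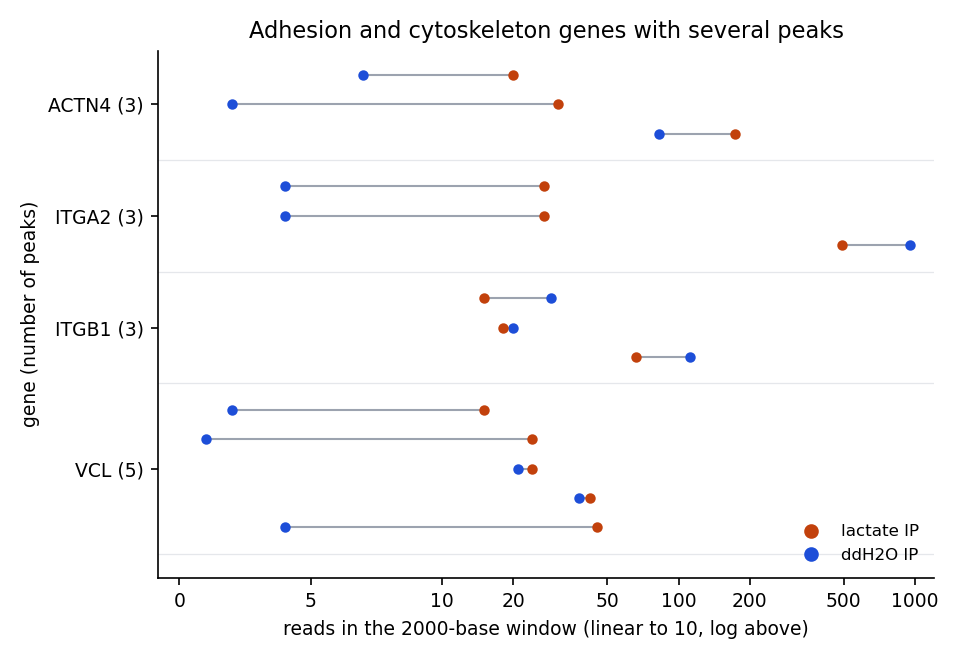
Reads in the 2000-base window at the 14 dense lactate-only peaks of the 4 adhesion and cytoskeleton genes that had more than 1, with the number of peaks in brackets. Each row is 1 peak, joined between the lactate IP and the ddH2O IP, and the axis is linear up to 10 reads and logarithmic above. The reads are not scaled for depth. The intron peaks of VCL and ITGA2 have 4 ddH2O reads or fewer, while all 3 ITGB1 peaks have more ddH2O than lactate reads.

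In the MAP kinase and EGFR pathway, which carries growth factor signals from the cell surface through a cascade of kinases, 17 of 26 genes had a lactate peak and 6 had 8 dense lactate-only peaks, 6 of them in introns and 6 above 2-fold, with a median log2 ratio of 1.71. Over all genes with a lactate peak 18.1% had a site, and 41.5% of all sites and 51.5% of intron sites were above 2-fold. AXL, a receptor tyrosine kinase, had densities of 12 with lactate and 3.66 with ddH2O in an intron. The kinase BRAF had 18.7 and 5.73, also in an intron. MAP2K1, which encodes the kinase MEK1, had 19 lactate reads and none with ddH2O in an intron. Against the floor of 3 ddH2O reads, with the lactate count taken as exact, this was at least 6.33-fold higher. SPRY4, an inhibitor of the pathway, had 61 and 42 reads in its 3' UTR.

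Of a list of 26 axon guidance and neurite factors, which steer growing nerve fibres, 19 had a lactate peak. There were 6 dense lactate-only peaks on 5 of them, all in introns and all above 2-fold on both scales, where 51.5% of intron sites were above 2-fold on the MAnorm scale and 61.1% of all sites by the library sums. Of all genes with a lactate peak, 18.1% had a site. SEMA3C, a secreted semaphorin, had densities of 19.9 and 5.71 (34 and 12 reads). SEMA3A had 2 adjoining peaks with 16 and 1 reads in each window, a ratio of 16 with an interval of 2.49 to 671. These 2 windows can hold the same reads, so the 6 peaks need not be 6 separate counts. The receptors NRP1 and EPHA2 had 16 and 9 reads and 15 and 6 reads, and the netrin gene NTN4 had 18 and 5. These windows hold few reads, and NRP1, at a log2 ratio of 1.02, stood just past 2-fold. The peaks of EPHA2 and NTN4 and 1 of the SEMA3A peaks did not pass a deposited q-value of 0.05 over input. Of all 3290 sites, 1779 did not. The list is not complete. The ephrin gene EFNA5, which is outside it and was chosen after its values were seen, had 4 intron sites with log2 ratios from 0.38 to 2.70, 2 of them above 2-fold, and the semaphorin gene SEMA4G had 1 site with densities of 73.6 and 90.7 (-0.30).

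Of 15 m5C writers, readers and erasers, 11 had a lactate peak, and YTHDF2 and TET2 had 1 lactate-only intron peak each, with log2 ratios of 0.50 and 0.35 (1.01, past 2-fold, and 0.80 by the library sums). Of 17 genes of lactate production, transport and lactylation, 14 had a lactate peak and 3 had a lactate-only one. Among all genes with a lactate peak, 18.1% had such a site. HDAC1, a deacetylase, had 15 lactate reads and 1 ddH2O read in an intron, PDHA1, a pyruvate dehydrogenase subunit, had densities of 12.6 and 10.9 in its 3' UTR (21 and 24 reads), and EP300, an acetyltransferase, had 27.1 and 28 in an exon (43 and 68 reads), a log2 ratio of -0.05 that turned to 0.21 by the library sums. The 3' UTR peak of STC1, which encodes the secreted hormone stanniocalcin-1, was among the dense lactate-only peaks at chr8:23843297-23843532. Its densities were 25.2 and 9.38, and its nearest ddH2O peak was 11040 bases away. Its fold over input was 2.11 with a deposited q-value of 0.13, which did not pass 0.05.

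Of 8 nuclear lncRNAs, 7 had a lactate peak and 3 had 8 of the sites, 5 of them above 2-fold (6 by the library sums), with a median log2 ratio of 1.28. Of all genes with a lactate peak 18.1% had a site, and 47.6% of all sites on lncRNA genes were above 2-fold. NEAT1, the scaffold of paraspeckles, had densities of 16.7 and 4.04. KCNQ1OT1, which silences an imprinted domain, had 2 sites with 39 and 14 reads and with 42 and 13, and it runs antisense inside KCNQ1, whose reads cannot be told apart without strand. FTX, a noncoding gene beside XIST, had 5, with log2 ratios from -0.60 to 1.30, and each of their windows had 11 or more ddH2O reads. Among 28 splicing regulators, 18 had a lactate peak and 4 had 1 of the sites each (18.1% of all genes with a lactate peak had any), SRSF10, SRSF4 and HNRNPD among them, with log2 ratios between 0.20 and 0.81 and none above 2-fold (41.5% over all sites), although 1 of them, HNRNPD at 1.25, was by the library sums. Of 13 snoRNA host genes, 4 had a lactate peak and 1 of these had such a site, GAS5, with 27 and 19 reads.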

How the data were processed

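RIP-seq libraries of PANC-1 cells were analysed (1 IP and 1 input per condition). The submitters' processing notes name fastp 0.20.1, HISAT2 2.1.0, MACS2 2.2.7.1, bedtools 2.29.2, HOMER 4.11.1 and DiffBind with GRCh38. Peak calling by the authors compared every IP library with its own input. For each peak they deposited the fold (ratio) over input and the q-value, both used here as given, beside the p-value, gene, biotype and region. They merged both lists with MAnorm and deposited a normalized read density (signal) per IP library in 2000-base windows. The log2 columns (M and A), P and group labels of that table are the authors' own comparison and were not used.

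Here, overlaps of 1 base were found from 1-based coordinates, and log2 ratios were computed from the 2 density columns. Reads per window were recovered by removing a line of slope 0.169 per unit of A, and 99.998% of windows gave whole reads in both libraries within 0.05. The depth outside the windows is unknown. Scaling by sums left out the 2 windows with over 1% of a library. Wilson, exact binomial and order-statistic intervals are at the 95% level. No test across samples was possible. Sequences and spans are from RefSeq GRCh38.p14. The script was tested on simulated data. Members and gene lists were chosen with earlier results of these data known, and the named sites are the 10 densest, the 10 highest and 5 lowest ratios, the 2 densest per region and biotype, the genes with most sites, list genes and those beside the minimum. The sixth gene by number of sites, the genes without a ddH2O peak, the windows without ddH2O reads, the small RNA genes and the printed sequences were added after their values were seen. Some genes that the rule names are not reported here. Alternatives were a density minimum of 4 or 16, a fold of 4, a q-value below 0.05, no ddH2O peak within 1000 bases, a 50% overlap and the library sums. Scripts ran in Python 3.11.15 (scipy 1.17.1, pandas 2.3.3, numpy 2.4.6, matplotlib 3.10.9).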

Additional observations from a re-analysis of the deposited data

How the results depend on the processing

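No paired analysis was possible because the result comes from no test and a condition has a single IP library. The number of sites, 3290, was 976 at a density minimum of 16 and 9697 at 4, 1244 at a fold over input of 4 or more, 1511 at a q-value below 0.05 and 1360 with no ddH2O peak within 1000 bases. In that order, the share above 2-fold towards lactate, 41.5%, was 24.8%, 54.9%, 59.2%, 53.7% and 57.1%, and it was 61.1% by the library sums. Scaled by the sums over all windows, with MT-RNR2 and MALAT1 kept, an alternative chosen after seeing the data, it was 30.0%. The median ddH2O density, 7.49, was 17.8, 2.90, 4.97, 5.83 and 4.99. The 3' UTR share, 17.8%, was 31.1%, 10.3%, 10.9%, 15.4% and 20.1%. The exon share, 14.4%, was 18.4% at a minimum of 16, 11.8% at 4 and 12.2% at the fold of 4. The intron share, 62.8%, was 45.9%, 71.8% and 71.9% at these 3 settings and 65.5% at the q-value. The stricter minimum was thus the setting tried under which fewer than 50% of the sites were intronic. The shares of protein-coding and lncRNA genes moved by less than their intervals under each alternative run, and requiring a 50% overlap changed none of these values. The cause of each shift was not tested. An alternative with the deposited P was not run, since it is part of the authors' own comparison. Low counts limit the ratios at the 347 sites (10.5%) with 3 or fewer ddH2O reads, a share that was 30.7% among all lactate peaks.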
